A study of Homo sapiens with 10 samples.

Results

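The KLF transcription factors described here are KLF2, KLF3, KLF4, KLF5, KLF6, KLF7, KLF9, KLF10, KLF11 and KLF13, in MDA-MB-231 breast cancer cells with or without BACH1 and with or without glucose. They were taken by gene symbol from a table of expression values, where these 10 symbols stand among 36459. All 10 were among the 13418 genes expressed highly enough to be tested. Without glucose, KLF4, KLF5, KLF6, KLF10 and KLF3 rose in BACH1 KO clones and in WT clones, and none of the 10 genes was called different between KO and WT clones. KLF9 was 3.84- to 4.50-fold higher without glucose in each of the 5 clones, while its level differed so much from clone to clone that it did not pass the same test. KLF9 did pass when each clone was compared with itself or when KO clone 1 was left out.

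Krüppel-like factors share zinc fingers at the carboxyl end that bind GC-rich and CACCC-type DNA, the elements that SP1 and its relatives also bind. The rest of each protein differs and sets its action. KLF2, KLF4, KLF5, KLF6 and KLF7 can activate transcription through acetyltransferases, KLF3 represses through the corepressor CTBP, and KLF9, KLF10, KLF11 and KLF13 recruit SIN3A. Several are immediate-early or stress-responsive genes in many cell types, and in breast epithelium KLF4 and KLF5 have been studied for opposite and context-dependent effects on proliferation.

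MDA-MB-231 cells come from a human triple-negative breast cancer and are of mesenchymal character. BACH1 is a heme-regulated bZIP transcription factor that the study tested as an activator of pro-metastatic genes during glucose starvation. The groups were BACH1 KO cells at 0 g/liter glucose, BACH1 KO cells at 4.5 g/liter glucose, WT (control) cells at 0 g/liter and WT cells at 4.5 g/liter, each kept in DMEM for 40 hours before poly-A RNA-seq. There were 3 KO clones, made by CRISPR editing, and 2 WT clones, so each genotype rests on single clones, and every clone gave 1 library at each glucose level (10 libraries). The clones are the replicates, and p-values measure the spread between them.

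The values are TPM, transcript abundances corrected for length and scaled to the same total in each library, which keep no sequencing depth, so the counting error behind a low value is unknown. Between 12259 and 12910 genes reached 1 TPM in a library. VIM (1321 to 2066 TPM) and CD44 (754 to 889 TPM) were high in every library and are markers of this line, whereas the luminal genes ESR1, PGR and FOXA1, the epithelial gene CDH1 and the endothelial genes PECAM1, CDH5 and VWF stayed under 1 TPM. Other markers of the same kinds were measured, the luminal GATA3 (10.8 to 40.2 TPM) and ERBB2 (14.3 to 37.2 TPM) and the epithelial EPCAM (6.72 to 11.3 TPM). Among immune markers, CD14 reached 2.09 TPM and PTPRC and CD3E stayed under 1 TPM, and of the fibroblast markers COL1A1 (4.53 to 11.8 TPM) and PDGFRB (4.39 to 10.7 TPM) were measured and COL3A1 stayed under 1 TPM. The BACH1 transcript was at 12.6, 23.9 and 17.2 TPM in KO clones 1 to 3 and at 19.7 and 20.6 TPM in WT clones without glucose, and at 5.18, 2.84 and 3.42 TPM in KO clones and 8.61 and 8.13 TPM in WT clones with glucose. The transcript was thus still measured in KO clones, and its level does not check whether the protein was lost. The paper reports that edited clones were identified by Western blot and shows a BACH1 blot of MDA-MB-231 WT and knockout cells. KO clone 1 stood apart from the other clones. Its genes of the mitochondrial genome held 29.1% of the TPM at 0 g/liter, against 22.4 to 24.7% in the other 4 clones. At 4.5 g/liter they held 29.7%, against 26.1 to 28.0% in the others. The median absolute log2 response of KO clone 1 to glucose removal over all tested genes was 0.27, against 0.35 to 0.37 in the other clones.

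The DNA just upstream of the starts of KLF4, KLF5, KLF6 and KLF9 is shown. They were picked by their values, KLF4, KLF5 and KLF6 as called higher without glucose and KLF9 as most varied between clones. KLF9 was also higher without glucose in each clone. The sequences are from RefSeq on GRCh38.p14 and were read 5′ to 3′ on the gene's strand. Each ends at the base before the start of the transcript marked as canonical, except that of KLF6, which ends where an exon of another transcript begins. The gene spans printed below reach upstream of the KLF4 and KLF5 stretches, so other starts of these genes lie there. KLF5 had 2 windows, and only the 1 at the canonical start is shown. Capitals mark the GC box GGGCGG (or its reverse complement), the kind of element that KLF and SP proteins bind, and the E-box CACGTG.
KLF4, chr9:107489770-107490019, minus strand: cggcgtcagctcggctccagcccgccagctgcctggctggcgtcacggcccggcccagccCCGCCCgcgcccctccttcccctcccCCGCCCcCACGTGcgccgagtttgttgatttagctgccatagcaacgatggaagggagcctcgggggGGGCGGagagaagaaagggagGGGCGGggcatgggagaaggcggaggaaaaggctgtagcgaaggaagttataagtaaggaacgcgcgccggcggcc
KLF5, chr13:73058755-73059004, plus strand: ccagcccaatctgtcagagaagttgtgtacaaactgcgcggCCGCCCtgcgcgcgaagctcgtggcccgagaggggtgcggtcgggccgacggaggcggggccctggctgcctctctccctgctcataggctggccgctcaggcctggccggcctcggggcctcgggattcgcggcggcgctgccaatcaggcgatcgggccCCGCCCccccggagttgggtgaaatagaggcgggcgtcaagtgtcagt
KLF6, chr10:3785282-3785459, minus strand: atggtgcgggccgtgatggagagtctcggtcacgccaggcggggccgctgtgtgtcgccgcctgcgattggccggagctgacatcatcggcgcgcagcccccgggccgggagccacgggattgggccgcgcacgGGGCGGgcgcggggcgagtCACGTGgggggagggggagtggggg
KLF9, chr9:70414658-70414907, minus strand: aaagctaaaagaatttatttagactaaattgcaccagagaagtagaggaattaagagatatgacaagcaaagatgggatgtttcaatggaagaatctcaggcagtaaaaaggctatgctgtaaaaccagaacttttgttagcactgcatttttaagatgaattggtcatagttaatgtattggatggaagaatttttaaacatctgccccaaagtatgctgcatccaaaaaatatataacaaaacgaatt
The KLF4 stretch held 4 GC boxes and 1 E-box, that of KLF5 held 2 GC boxes, and that of KLF6 held 1 GC box and 1 E-box. The KLF9 stretch held neither and had a GC content of 32.4%, against 69.2% for KLF4, 70.8% for KLF5 and 76.4% for KLF6.

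Over the 250 bases before the start, searched on both strands in all promoter windows of the RefSeq table (35116 windows), 42.6% held a GC box and 6.35% an E-box. Of the 8 KLF genes matched to that table by symbol, 7 had a GC box in at least 1 of their windows, all but KLF9, and KLF4, KLF6, KLF7 and KLF11 had an E-box. These 8 genes had 13 windows, and the percentages count single windows. The counts of genes are therefore not on the same footing, and the share of all genes with a match was not counted. The cyclic AMP response element TGACGTCA was found for KLF11 (1.65% of all windows). No window of these 8 genes held the AP-1 element TGAGTCA (4.20% of all windows), the ATF4-CEBP core TGATGCAA (0.772%), the CACCC box CCACACCC (2.97%) or a heat shock element (0.441%). No sequence is shown for KLF3 and KLF10. These are matches of letters, and no factor's binding was measured. KLF2, KLF7, KLF11 and KLF13, which also had a GC box, were not among the 5 genes called higher without glucose, given below.

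The first question was which KLF genes answered to the loss of glucose. With limma on log2(TPM + 1) and an adjusted p (Benjamini-Hochberg) under 0.05 as the call, 5 of the 10 genes were higher at 0 than at 4.5 g/liter in BACH1 KO clones, where 9.05% of all tested genes were called higher. In WT clones 5 of 10 were higher, against 7.47% of all genes. The 5 were KLF3, KLF4, KLF5, KLF6 and KLF10 in both genotypes. None was lower, although 19.9% of all genes were called lower in KO clones and 15.9% in WT clones. The median log2 fold change of the 10 genes was 0.96 in KO clones and 1.10 in WT clones, whereas over all tested genes it was -0.15 and -0.17. TPM is a share of each library's RNA, so a higher share and a lower total of other RNA cannot be told apart, nor can more cells that express a gene and more RNA per cell.

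**Figure D1:**
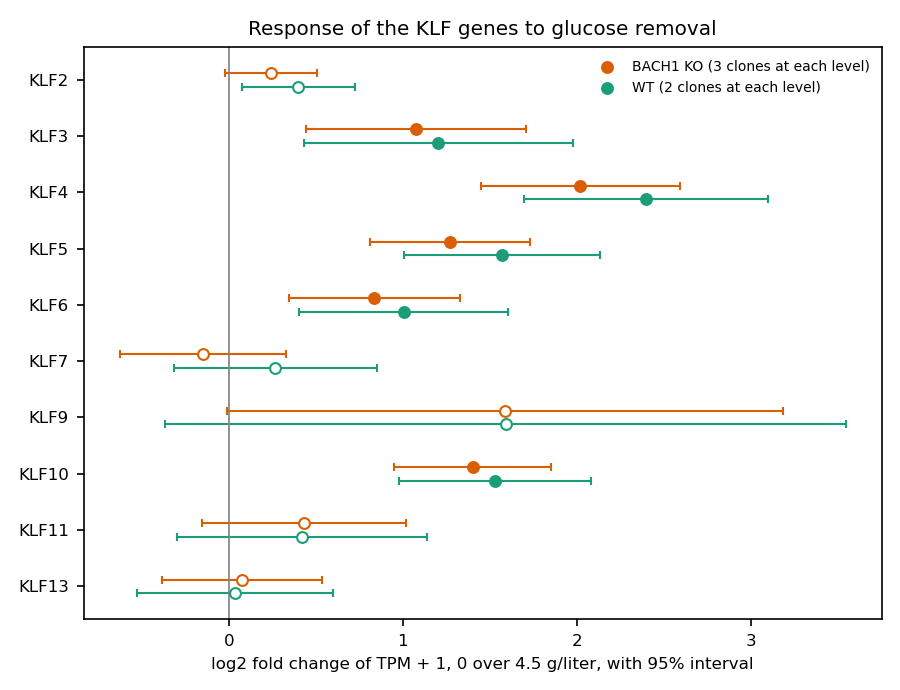
Log2 fold change of TPM + 1 at 0 over 4.5 g/liter glucose for the 10 KLF genes (x axis; genes on the y axis), in BACH1 KO clones (orange, upper point of each pair) and WT clones (green, lower point), with 95% intervals from limma; filled points passed the adjusted p of 0.05. KLF3, KLF4, KLF5, KLF6 and KLF10 are filled in both genotypes, and KLF9 has a fold change of 1.59 in both with an interval that includes 0.

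Among the activators, KLF4 (chromosome 9, 107484852 to 107490482, GRCh38), a factor that restrains proliferation in many epithelia and is used in reprogramming, had the largest log2 fold change of the 10. It was at 22.9, 37.3 and 36.0 TPM in KO clones 1, 2 and 3 at 0 g/liter, against 5.29, 5.83 and 10.8 TPM at 4.5 g/liter. WT clones 1 and 2 had 31.9 and 32.3 TPM without glucose and 5.67 and 4.92 TPM with it. The ranges did not overlap in either genotype, and the lowest starved library, KO clone 1, was still above the highest fed library, KO clone 3. Its log2 fold change was 2.02 in KO clones (standard error 0.25, adjusted p = 0.000842 from limma) and 2.40 in WT clones (0.31, adjusted p = 0.00154). Within single clones the TPM ratio ran from 3.32 in KO clone 3 to 6.57 in WT clone 2.

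KLF5 (chromosome 13, 73054976 to 73077541), which drives growth of epithelial progenitors and is removed through the ubiquitin ligases WWP1 and FBXW7, was the second most abundant of the 10. KO clones had 109.7, 155 and 82.1 TPM at 0 g/liter, against 53.7, 43.6 and 40.8 TPM at 4.5 g/liter. WT clones had 146 and 146 TPM without glucose, against 52.1 and 44.9 TPM with it. All 5 starved libraries were above all 5 fed ones, and KO clones 1 and 3 were lower than both WT clones without glucose. On the log2 scale KLF5 rose by 1.27 in KO clones (standard error 0.20, adjusted p = 0.00249 from limma) and by 1.57 in WT clones (0.25, adjusted p = 0.00355).

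KLF6 (chromosome 10, 3775996 to 3785281), an injury-induced factor and activator of CDKN1A, was the most abundant in each group. It was at 140.4, 285 and 166 TPM in KO clones at 0 g/liter, against 102, 116 and 98.0 TPM at 4.5 g/liter. WT clones had 193 and 208 TPM without glucose and 97.8 and 101 TPM with it. The groups did not overlap, but KO clone 1 rose 1.38-fold and KO clone 2 rose 2.46-fold. The log2 fold change was 0.84 in KO clones (standard error 0.22, adjusted p = 0.0195 from limma) and 1.00 in WT clones (0.27, adjusted p = 0.0261). With only the KO libraries in the fit, KLF6 was not called in KO clones (adjusted p = 0.0610 from limma). The call was lost in KO clones without the library of KO clone 3 at 4.5 g/liter (adjusted p = 0.0600) and in WT clones without any 1 of the 4 WT libraries (adjusted p up to 0.125), where 1 group holds a single library assumed to vary like the others.

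KLF2 and KLF7 did not pass the test. KLF2 (chromosome 19, 16324826 to 16328685), which like KLF4 is induced through MEK5, ERK5 and MEF2 in endothelium exposed to flow, was at 19.7, 21.4 and 18.4 TPM in KO clones at 0 g/liter, against 16.7, 15.6 and 17.5 TPM at 4.5 g/liter. In WT clones it was at 20.9 and 16.6 TPM, against 13.2 and 14.6 TPM. The starved libraries were above the fed ones within each genotype, yet the changes were small, with a log2 fold change of 0.24 in KO clones (adjusted p = 0.151 from limma) and 0.40 in WT clones (adjusted p = 0.0729). When the libraries were rescaled by median ratios, KLF2 was called in KO clones (0.40, adjusted p = 0.0455) and in WT clones (0.58, adjusted p = 0.0313), and quantile normalization gave the same calls (adjusted p = 0.0493 and 0.0380). Median-ratio scaling moved the median over all tested genes to 0.00 in both genotypes and that of the 10 KLF genes to 1.12 in KO clones and 1.29 in WT clones. With it, 1703 genes were called higher and 1282 lower in KO clones, and 1364 higher and 815 lower in WT clones. Quantile normalization gave all-gene medians of -0.083 in KO and -0.10 in WT clones, with 1370 genes higher and 1657 lower in KO clones and 1134 higher and 1170 lower in WT clones, whereas the TPM as deposited gave 1214 higher and 2664 lower in KO clones and 1002 higher and 2136 lower in WT clones.

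KLF7 (chromosome 2, 207074137 to 207173856), known for its part in axon growth, moved in both directions among the KO clones. It was at 3.28, 5.79 and 6.08 TPM in KO clones at 0 g/liter, against 6.76, 4.65 and 5.41 TPM at 4.5 g/liter, so that KO clone 1 went to 0.486 of its level with glucose and KO clones 2 and 3 to 1.24 and 1.12. WT clones had 5.45 and 4.84 TPM, against 4.53 and 3.71 TPM. The KO groups overlapped. Its log2 fold change was -0.15 in KO clones (95% interval -0.63 to 0.33) and 0.27 in WT clones (-0.32 to 0.85), and without KO clone 1 it was 0.20 in KO clones.

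**Figure D2:**
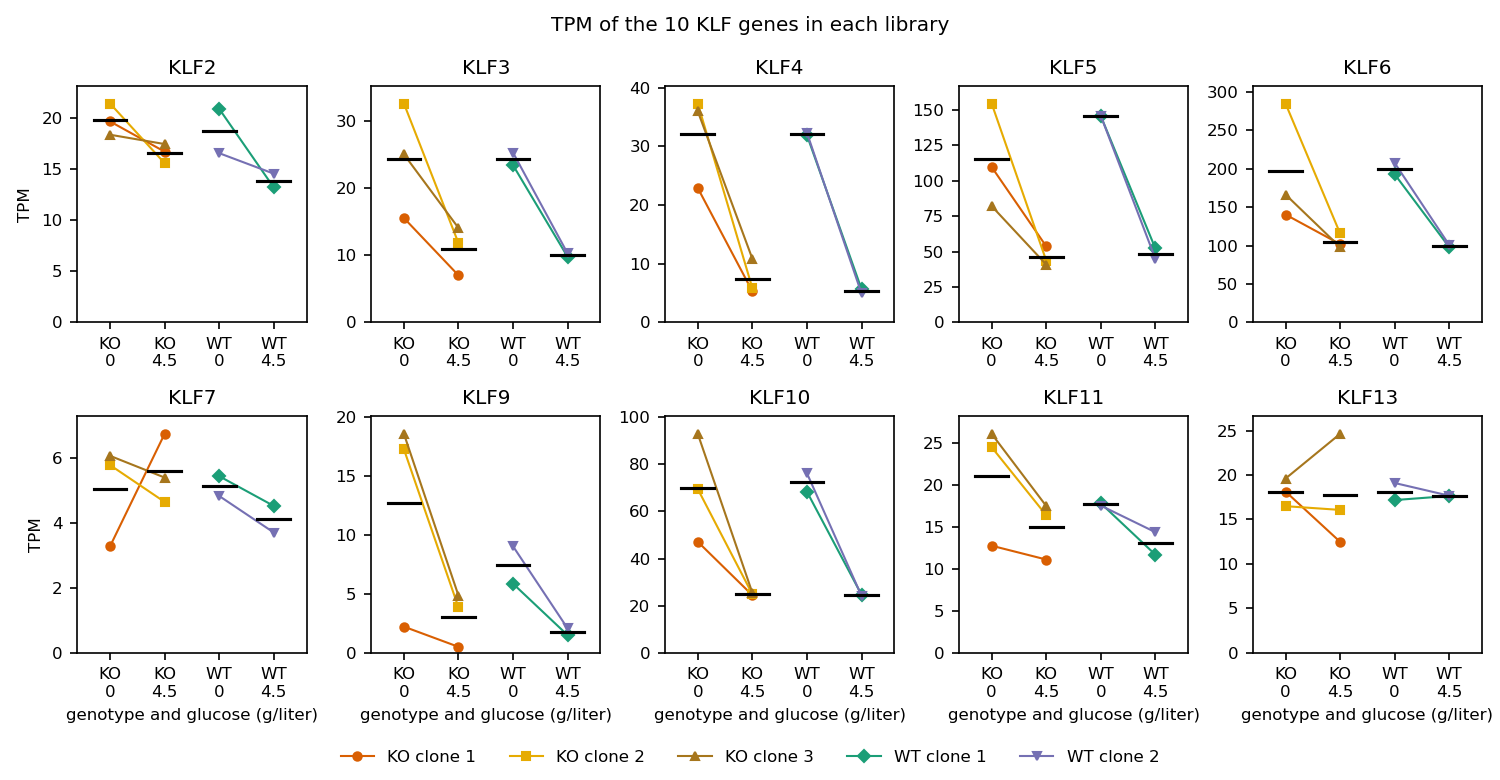
TPM of each KLF gene (1 panel a gene, y axis from 0) in BACH1 KO cells at 0 and 4.5 g/liter glucose and WT cells at 0 and 4.5 g/liter (x axis); each point is 1 library, lines join both libraries of a clone, and black bars are group means. Starved and fed points are separate for KLF3, KLF4, KLF5, KLF6 and KLF10, KLF9 lines start from different levels in each clone, and KO clone 1 (orange circles) is the lowest starved clone for 7 of the 10 genes.

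Among the repressors, KLF10, which TGF-beta induces early and which acts with SIN3A, had nearly equal levels in all fed clones. KO clones had 47.1, 69.5 and 92.9 TPM at 0 g/liter, against 24.4, 24.8 and 25.4 TPM at 4.5 g/liter. WT clones had 68.4 and 76.2 TPM without glucose and 24.6 and 24.1 TPM with it. The starved libraries spread over a range of 47.1 to 92.9 TPM whereas the fed ones ran from 24.1 to 25.4 TPM, and the groups did not overlap. KLF10 rose by 1.40 on the log2 scale in KO clones (standard error 0.20, adjusted p = 0.00151 from limma) and by 1.53 in WT clones (0.25, adjusted p = 0.00370).

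KLF3 (chromosome 4, 38664197 to 38701517), a CTBP-dependent repressor known from erythroid and fat cells, was at 15.5, 32.6 and 25.0 TPM in KO clones at 0 g/liter, against 7.00, 11.8 and 14.1 TPM at 4.5 g/liter. WT clones had 23.4 and 25.3 TPM, against 9.74 and 10.3 TPM. All starved libraries were above all fed ones, and the ratio in single clones ran from 1.78 to 2.76. KLF3 rose by 1.08 on the log2 scale in KO clones (standard error 0.28, adjusted p = 0.0195 from limma) and by 1.20 in WT clones (0.34, adjusted p = 0.0340). With only the KO libraries in the fit, KLF3 was not called in KO clones (adjusted p = 0.0611 from limma). In KO clones the call was lost without the starved library of KO clone 2 (adjusted p = 0.0634) or of KO clone 3 (0.0582), and in WT clones without any 1 WT library (adjusted p up to 0.148).

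KLF9 (chromosome 9, 70384604 to 70414657), a repressor that glucocorticoids and thyroid hormone induce, had the widest spread between clones. It was at 2.21, 17.3 and 18.6 TPM in KO clones 1, 2 and 3 at 0 g/liter, against 0.496, 3.84 and 4.85 TPM at 4.5 g/liter. WT clones 1 and 2 had 5.86 and 9.04 TPM without glucose and 1.49 and 2.06 TPM with it. The starved KO clone 1 was below the fed KO clones 2 and 3, so the KO groups overlapped, although each clone was higher without glucose by a similar ratio, 4.46, 4.50 and 3.84 in KO clones and 3.95 and 4.39 in WT clones. The log2 fold change was 1.59 in KO clones (standard error 0.71, adjusted p = 0.122 from limma) and 1.59 in WT clones (0.87, adjusted p = 0.215). When the fit paired both libraries of each clone (clone as a block), KLF9 was called in KO clones (adjusted p = 0.000416) and in WT clones (adjusted p = 0.00135). It was called in WT clones when only the WT libraries entered the fit (adjusted p = 0.00502), which called 6088 of all tested genes. With only the KO libraries in the fit, KLF9 was not called in KO clones. KLF9 was also called without both libraries of KO clone 1 (adjusted p = 0.000826 in KO clones and 0.00157 in WT clones), with a log2 fold change of 1.83 in KO clones. It was called in KO clones without the starved library of KO clone 1 alone (2.44, adjusted p = 0.00785). That last fit keeps the low fed library of this clone and so breaks its pair, which makes the change larger. Since 0.496 TPM is under the added 1 TPM, the log2 scale understates the change in KO clone 1.

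KLF11 (chromosome 2, 10042849 to 10054836), a close relative of KLF10 that TGF-beta also induces, was at 12.8, 24.5 and 26.1 TPM in KO clones at 0 g/liter, against 11.1, 16.4 and 17.5 TPM at 4.5 g/liter. WT clones had 17.8 and 17.6 TPM, against 11.7 and 14.4 TPM. Each clone was higher without glucose, by 1.15- to 1.52-fold, but the KO groups overlapped because KO clone 1 was low at both levels. The log2 fold change was 0.43 in KO clones (standard error 0.26, adjusted p = 0.244 from limma) and 0.42 in WT clones (0.32, adjusted p = 0.375). With the clone as a block KLF11 was called in KO clones (adjusted p = 0.0161) and in WT clones (adjusted p = 0.0421), and the fit of the WT libraries alone called it in WT clones (adjusted p = 0.0389). The fit of the KO libraries alone did not call it in KO clones. Without both libraries of KO clone 1, KLF11 was called as well (adjusted p = 0.0100 in KO clones and 0.0293 in WT clones), with a log2 fold change of 0.55 in KO clones. It was called in KO clones without the starved library of KO clone 1 alone (0.74, adjusted p = 0.0162), a fit that breaks the pair in the same way.

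KLF13 (chromosome 15, 31326835 to 31435665), an activator of the chemokine CCL5 in T cells that can also repress through SIN3A, did not follow glucose. It was at 18.1, 16.5 and 19.6 TPM in KO clones at 0 g/liter, against 12.5, 16.1 and 24.6 TPM at 4.5 g/liter. WT clones had 17.2 and 19.1 TPM, against 17.6 and 17.7 TPM. Only 3 of the 5 clones were higher without glucose, and both genotypes' groups overlapped. The log2 fold change was 0.08 in KO clones (95% interval -0.38 to 0.53) and 0.04 in WT clones (-0.53 to 0.60).

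The order of the 10 genes by TPM, a scale that accounts for transcript length, began with KLF6, KLF5 and KLF10 in every group. In starved KO clones the ranges of KLF6 and KLF5 overlapped, and so did those of KLF5 and KLF10. KLF4 held the eighth place in fed KO and fed WT clones and the fourth in starved KO and starved WT clones, where it averaged 32.0 ± 7.96 TPM (SD, n = 3) in KO and 32.1 ± 0.291 TPM (SD, n = 2) in WT. From the fourth place down, neighbouring ranges overlapped in both KO groups. In fed KO clones the range of KLF10 (24.4 to 25.4 TPM) also overlapped that of KLF13 (12.5 to 24.6 TPM), the next gene. KLF9 was lowest with glucose (3.06 ± 2.28 TPM in KO and 1.77 ± 0.405 TPM in WT), and KLF7 was lowest without it (5.05 ± 1.54 TPM in KO and 5.14 ± 0.432 TPM in WT). Summed over the 10 genes, starved libraries held 392, 664 and 491 TPM in KO clones and 529 and 554 TPM in WT clones, and fed libraries held 239.8, 258 and 259 TPM in KO clones and 239 and 237 TPM in WT clones. The fed sums were alike in all 5 clones, whereas the starved sums of the KO clones lay on both sides of those of the WT clones.

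The second question was whether the loss of BACH1 changed these genes. At 0 g/liter none of the 10 was called between KO and WT clones, where 0.00745% of all genes were called higher and 0.0298% lower. At 4.5 g/liter none was called either, against 0.0373% higher and 0.0373% lower. By limma, 0 of the 10 had an unadjusted p under 0.05 at either level, against 389 of 13418 genes at 0 g/liter and 426 at 4.5 g/liter. At 0 g/liter the log2 fold changes ran from -0.38 for KLF5 (95% interval -0.90 to 0.13) to 0.34 for KLF9 (-1.45 to 2.12), and 3 of 10 were positive, against 45.0% of all genes. At 4.5 g/liter they ran from -0.08 for KLF5 (-0.59 to 0.43) to 0.36 for KLF7 (-0.17 to 0.89), and 8 of 10 were positive, against 41.5% of all genes. All adjusted p were 1 by limma. At 4.5 g/liter the KO and WT ranges did not overlap for KLF2 (15.6 to 17.5 TPM in KO and 13.2 to 14.6 TPM in WT) and KLF7 (4.65 to 6.76 TPM in KO and 3.71 to 4.53 TPM in WT), and at 0 g/liter all 10 overlapped. The unadjusted p at 4.5 g/liter was 0.0993 for KLF2 and 0.162 for KLF7 by limma. How many of all tested genes had separate ranges was not counted, so this separation is not read as an effect of BACH1.

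**Figure D3:**
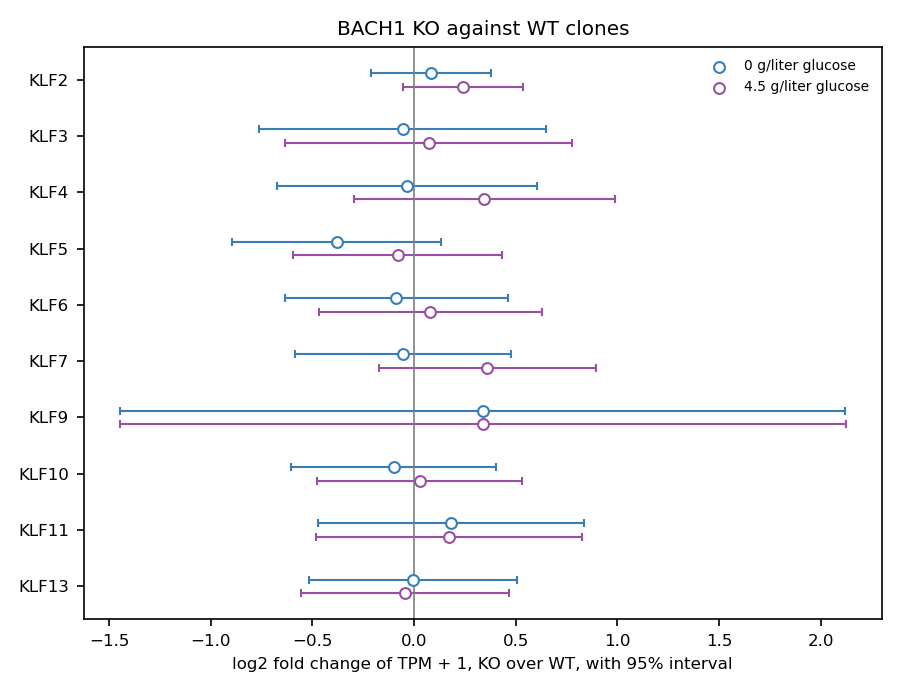
Log2 fold change of TPM + 1 in BACH1 KO over WT clones for the 10 KLF genes (x axis; genes on the y axis) at 0 g/liter glucose (blue, upper point of each pair) and at 4.5 g/liter (purple, lower point), with 95% intervals from limma; open points did not pass the adjusted p of 0.05. No interval excludes 0, and that of KLF9 is the widest, from -1.45 to 2.12 at 0 g/liter.

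The intervals were widest for KLF9, and they do not show that BACH1 KO and WT clones had equal levels of any of these genes.

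The difference in response, tested as the interaction of genotype and glucose, was not called for any of the 10 genes, against 0% of all genes called higher and 0.00745% called lower. The adjusted p was 1.00 by limma for each, and 0 of 10 had an unadjusted p under 0.05, against 136 of 13418 genes. The interaction ran from -0.42 for KLF7 (95% interval -1.17 to 0.34) to 0.04 for KLF13 (-0.68 to 0.76). It was -0.38 for KLF4 (-1.28 to 0.53) and -0.30 for KLF5 (-1.03 to 0.43). The interaction was negative for 8 of 10 genes, whereas it was positive for 54.1% of all tested genes. The values of the 10 genes were within the spread of the clones.

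That spread had an order in which KO clone 1 and KO clone 2 were far apart. Without glucose, KO clone 1 was the lowest of the 5 clones for 7 of the 10 genes, and it was the lowest for 34.4% of all tested genes. The median log2 response of the 10 genes, taken clone by clone, was 0.71 in KO clone 1, 1.34 in KO clone 2 and 0.77 in KO clone 3, and 1.08 and 1.13 in the WT clones. KO clones 1 and 3 were thus below both WT clones and KO clone 2 above them. The part of the higher mitochondrial share of KO clone 1 in its KLF levels was not tested. Without both libraries of that clone, none of the 10 genes was called between KO and WT clones at either glucose level, and 7 were called higher without glucose in each genotype. Calls over all genes rose too. For glucose, that fit called 1671 genes higher in KO clones and 1542 in WT clones, against 1214 and 1002 with all libraries. Between KO and WT clones it called 38 genes at 0 g/liter and 40 at 4.5 g/liter.

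With glucose, KLF9, KLF11 and KLF3 shared 1 order of the clones. From low to high it was KO clone 1, WT clone 1, WT clone 2, KO clone 2 and KO clone 3. Without glucose KLF9 kept this order, and KLF11 kept it except that WT clone 1 (17.83 TPM) was above WT clone 2 (17.56 TPM). KLF3 without glucose ran KO clone 1, WT clone 1, KO clone 3, WT clone 2 and KO clone 2. After each group's mean was taken out, the log2 levels of KLF9 and KLF11 correlated at 0.97 over the 10 libraries, those of KLF3 and KLF9 at 0.94 and those of KLF3 and KLF11 at 0.90. KLF4 and KLF10 varied with them as well, KLF4 at 0.79 with KLF9 and 0.83 with KLF3, and KLF10 at 0.77 with KLF9 and 0.79 with KLF11. KLF9 and KLF5 correlated at -0.23. KO clone 1 was the lowest for KLF9, KLF11 and KLF3 at both glucose levels. These correlations describe 10 libraries from 5 clones, and libraries of 1 clone are not independent.

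**Figure D4:**
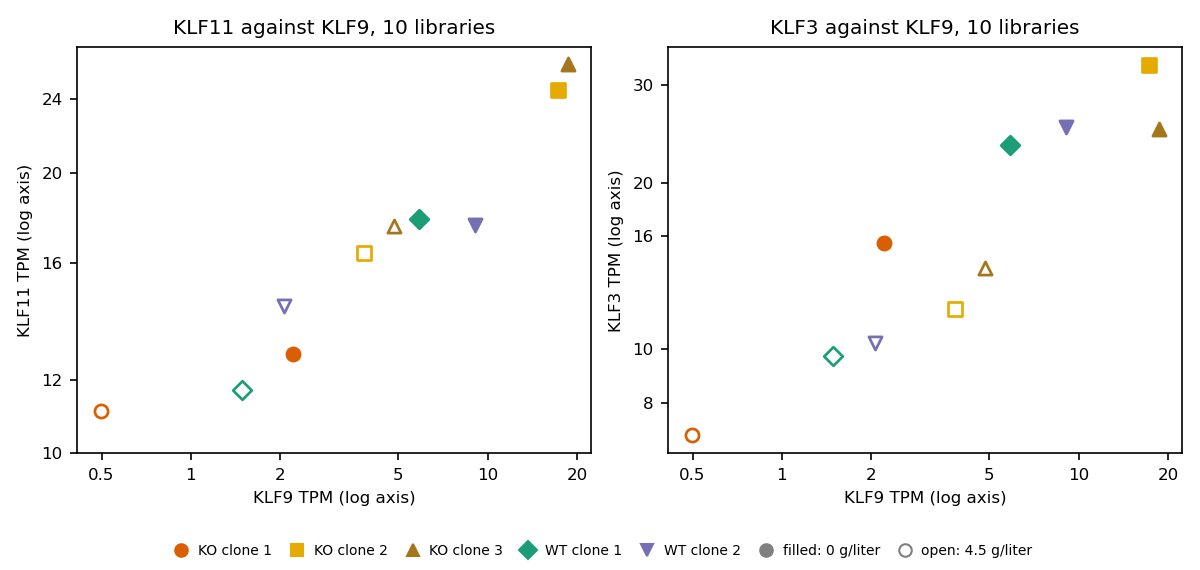
KLF11 TPM (left panel) and KLF3 TPM (right panel) against KLF9 TPM in the 10 libraries, on log axes; symbols and colours mark the clone, filled symbols are 0 g/liter and open symbols 4.5 g/liter glucose. In both panels KO clone 1 with glucose (0.496 TPM of KLF9) is at the lower left, and the starved KO clones 2 and 3 (17.3 and 18.6 TPM) are at the right.

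Of 10 other KLF and SP family members that could be tested, 4 were called lower without glucose in KO clones, where 19.9% of all tested genes were, and 4 in WT clones, where 15.9% were. None was called higher, and 6 were not called in either genotype. SP5 (log2 fold change 0.86 in KO and 0.65 in WT clones) and SP6 (0.29 and 0.34) were among these 6. The difference between this list and the 10 KLF genes above was not tested. SP1, the general activator bound at GC boxes, averaged 15.7 TPM in starved and 26.0 TPM in fed KO clones (log2 fold change -0.68, adjusted p = 0.00529 from limma), and 15.0 and 25.4 TPM in starved and fed WT clones (-0.72, adjusted p = 0.0132). SP3, its close relative, averaged 51.6 TPM in starved and 80.0 TPM in fed KO clones (-0.62, adjusted p = 0.00209), and 49.6 and 76.7 TPM in WT clones (-0.62, adjusted p = 0.00745). KLF17 was near the limit of 1 TPM (0.652 TPM starved and 1.92 TPM fed in KO clones), and SP2, named after its values were seen, was the other gene called. With median-ratio scaling, 1 of the 10 was called higher and 3 lower in KO clones, and 0 higher and 2 lower in WT clones. In KO clones, 1 was also called higher with the clone as a block and without KO clone 1, and in WT clones 1 was called higher when only the WT libraries entered the fit. The median log2 fold change of these 10 genes was -0.28 in KO clones and -0.36 in WT clones.

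**Figure D5:**
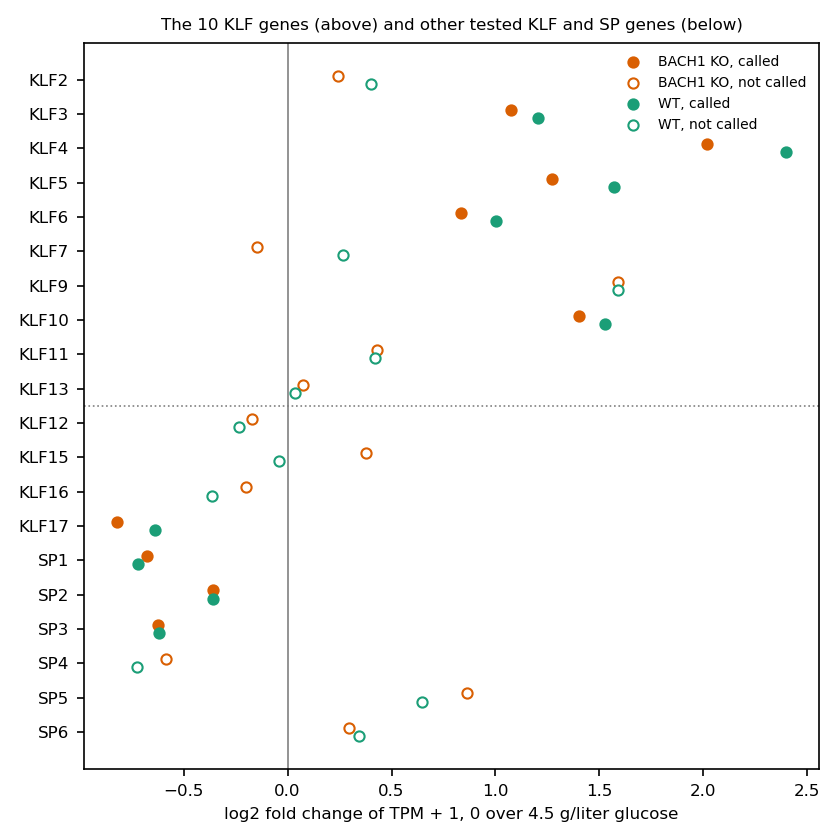
Log2 fold change of TPM + 1 at 0 over 4.5 g/liter glucose (x axis) for the 10 KLF genes, above the dotted line, and for the 10 other tested KLF and SP genes, below it, in BACH1 KO clones (orange) and WT clones (green); filled points passed the adjusted p of 0.05. All filled points above the line are to the right of 0 and all filled points below it to the left.

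Of 14 corepressors, acetyltransferases and ubiquitin ligases that act with KLF proteins, 2 were called higher and 3 lower without glucose in KO clones, and likewise 2 and 3 in WT clones. Over all tested genes 9.05% were called higher and 19.9% lower in KO clones, and 7.47% higher and 15.9% lower in WT clones. FBXO32, the ubiquitin ligase atrogin-1 induced in wasting muscle, averaged 59.7 TPM in starved and 6.05 TPM in fed KO clones (log2 fold change 3.01, adjusted p = 0.000223 from limma), and 51.1 and 3.70 TPM in WT clones (3.47, adjusted p = 0.000524). SIN3A, the scaffold through which KLF9, KLF10, KLF11 and KLF13 repress, averaged 15.6 TPM in starved and 28.0 TPM in fed KO clones (-0.81, adjusted p = 0.00150), and 16.6 and 27.1 TPM in WT clones (-0.67, adjusted p = 0.0109). CTBP1, a partner of KLF3, was lower too (-0.61 in KO and -0.78 in WT clones). The median of the list was -0.20 in KO clones and -0.17 in WT clones, near the all-gene medians of -0.15 and -0.17.

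Of the 7 genes of the MEK5 to MEF2 cascade that induces KLF2 and KLF4 in endothelium, 1 was called higher and 2 lower in starved KO clones, and 2 higher and 2 lower in WT clones, beside the all-gene shares of 9.05% higher and 19.9% lower in KO clones and 7.47% and 15.9% in WT clones. The median of the list was 0.086 in KO and -0.065 in WT clones. The kinases MAP3K3 (log2 fold change -0.72 in KO and -0.67 in WT clones) and MAPK7, which is ERK5 (-0.71 and -0.63), were lower, and the transcription factor MEF2D was higher (0.56 and 0.68). Of 11 TGF-beta pathway genes, which act upstream of KLF10 and KLF11, 3 were called higher and 4 lower in KO clones (all genes, 9.05% and 19.9%), and 2 higher and 3 lower in WT clones (all genes, 7.47% and 15.9%). The list's median was -0.22 in KO and -0.22 in WT clones. The feedback inhibitors SKIL (1.54 in KO and 1.91 in WT clones) and SMAD7 (1.51 and 1.47) were higher, and the effector SMAD3 was lower (-0.58 and -0.62). SKI, of the same list, was called lower as well (-0.46 in KO and -0.65 in WT clones). With median-ratio scaling, the TGF-beta genes called were 3 higher and 1 lower in KO clones and 3 higher and 0 lower in WT clones.

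KLF9 is a target of the glucocorticoid receptor, and of 5 tested genes of that list 3 were called higher and 1 lower without glucose in each genotype, where 9.05% of all genes were called higher and 19.9% lower in KO clones and 7.47% and 15.9% in WT clones. The median over the 5 was 1.34 in KO and 1.76 in WT clones. SGK1, a kinase of ion transport, averaged 241 TPM in starved and 29.1 TPM in fed KO clones (log2 fold change 2.85, adjusted p = 0.0009 from limma), and 266 and 32.1 TPM in WT clones (3.01, adjusted p = 0.00261). TSC22D3, which encodes GILZ, was also higher (1.34 in KO and 1.79 in WT clones). FKBP5, another receptor target, was lower (-0.66 and -0.68), so the list did not move one way. Of 9 tested genes described as KLF targets, 4 were called higher and 2 lower in each genotype, against the same shares of all genes, with a median of 0.58 in KO and 0.72 in WT clones. CDKN1A, the cell cycle inhibitor p21 that KLF4 and KLF6 activate, averaged 258 TPM in starved and 27.8 TPM in fed KO clones (3.12, adjusted p = 0.000107), and 365 and 35.9 TPM in WT clones (3.31, adjusted p = 0.000408). MYC was higher (1.13 in KO and 1.06 in WT clones). TXNIP, which glucose itself induces, was lower (-2.09 and -1.91). No gene of these 6 lists was called between KO and WT clones or in the difference in response.

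Among the genes named from these lists, the WT calls of SP1, SP2, KLF17, CTBP1, MAPK7 and SMAD7 were lost without any 1 WT library, and those of SP3, SIN3A, MAP3K3, MEF2D, SMAD3 and FKBP5 without at least 1 of them, with a highest adjusted p of 0.0532 (MEF2D, without WT clone 1 at 0 g/liter or WT clone 2 at 4.5 g/liter) to 0.207 (SP2) by limma. In KO clones the call of CTBP1 was lost without KO clone 1 or 2 at 0 g/liter or KO clone 2 or 3 at 4.5 g/liter (adjusted p up to 0.0914), and that of SP2 without KO clone 2 at 4.5 g/liter (0.0501). With median-ratio scaling, KLF17, SP2, SIN3A, CTBP1, MAPK7 and SMAD3 were not called in WT clones (adjusted p = 0.0509 to 0.267 by limma). With the same scaling SP2 and CTBP1 were not called in KO clones. How the calls of SKI held in these fits is not given.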

How the data were processed

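Poly-A RNA of 2 WT and 3 BACH1 KO clones of MDA-MB-231 cells at both glucose levels was sequenced as single-end reads of 100 bases. The TPM values deposited by the authors came from kallisto 0.44.0, run against the GRCh38.p12 transcriptome after bcl2fastq 2.19 according to the submitters' processing notes. How transcripts were summed per symbol is not given in the sources used here. The authors used DESeq2 for their own comparisons, which are not used here.

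Genes that reached 1 TPM in at least 2 libraries (13418) were tested on log2(TPM + 1) by limma 3.58.1 under R 4.3.3, with a mean for each of the 4 groups, an eBayes trend, two-sided p, Benjamini-Hochberg adjustment over all genes and 6 residual degrees of freedom. The threshold was an adjusted p of 0.05. This scale understates changes of low genes. Before testing, 27 symbols turned into dates were removed. Exact permutation tests of 3 against 3 or 2 clones cannot reach 0.05. No pair of libraries held identical values, and the fit was tested on simulated data.

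Each clone was grown with and without glucose, which pairs its libraries. Within a clone, residuals about the group means correlated at 0.609, 0.426 and 0.506 for KO clones 1 to 3 and at 0.0991 for the WT clones. Alternatives were other pseudocounts, filters and scalings, removal of mitochondrial genes, the clone as a block, only the compared libraries, no trend, and leaving out each library. Leaving out KO clone 1, and following the lists under the alternatives, were added after the values were seen.

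The members, lists and tests were chosen with earlier results of these data known. All members are named, with at most 3 called genes of each list by smallest p, and the 3 genes most correlated with KLF4, KLF5 and KLF10. SP2, SP5, SP6 and SKI were named outside this rule. Gene places are from GENCODE v44 on GRCh38, not stated to be the annotation behind the TPM values, and promoter windows from RefSeq on GRCh38.p14.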

Additional observations from a re-analysis of the deposited data

How the results depend on the processing

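In the replicate block fit, which pairs the libraries of each clone, 7 of the 10 KLF genes were called higher without glucose in KO and in WT clones, KLF9 and KLF11 being added, and the block changed no other call of a KLF gene. It called 6237 genes in KO and 5504 in WT clones, against 3878 and 3138 without it. Without a filter on low values 3 KLF genes were called in KO and 3 in WT clones, because KLF3 (adjusted p = 0.0511 in KO and 0.0774 in WT clones, limma) and KLF6 (0.0502 and 0.0607) no longer passed. With only the libraries compared, 3 were called in KO clones and 7 in WT clones, where 2224 and 6088 of all tested genes were called. Leaving out 1 library gave 4 to 7 called KLF genes in KO clones and 3 to 5 in WT clones. The WT fits without 1 library leave a group of 1, and they called 765 to 1036 genes in all. No alternative called a KLF gene between KO and WT clones or in the difference in response.

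Values that changed sign belonged to genes not called. For glucose in KO clones, KLF13 ran from -0.14 to 0.33 and KLF7 from -0.28 to 0.082 when 1 library was left out, and without KO clone 1 they were -0.14 and 0.20. KLF13 in WT clones was -0.013 without mitochondrial genes and ran from -0.037 to 0.11 when 1 library was left out. For KO against WT when 1 library was left out, KLF9 ran from -0.11 to 1.19 at 0 g/liter and from -0.035 to 0.95 at 4.5 g/liter, and KLF5 from -0.19 to 0.025 at 4.5 g/liter. The interaction of KLF13 ran from -0.17 to 0.29 and was -0.18 without KO clone 1. The causes were not tested. TPM keeps no depth, so the error of low values such as those of KLF9 with glucose cannot be given. Leaving aside the fits without 1 library, counts of called genes moved by more than 1.5 times for 3 lists. The cofactor list, 5 in each genotype, had 3 in KO and 3 in WT clones with no filter, 3 and 2 with median-ratio scaling, 3 in WT clones with quantile normalization, 9 in KO clones with the replicate block and 2 in KO clones with only the libraries compared. The TGF-beta list, 7 in KO and 5 in WT clones, had 4 and 8 with only the libraries compared, 4 and 3 under median-ratio scaling, and 3 and 3 after quantile normalization. The other KLF and SP genes, 4 in each, had 2 in WT clones with median-ratio scaling. Without 1 library, the lists had 3 to 7 called genes in KO clones. In WT clones the counts of every list moved by more than 1.5 times when 1 library was left out. A fit without a WT library leaves a group of 1.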

Other observations

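Outside the family, the genes whose log2 levels were most like those of a KLF gene were sought over the 10 libraries among 10010 genes with a mean of at least 5 TPM. For KLF4 these were DNAJB9 (Pearson r = 0.992), an endoplasmic reticulum chaperone of the unfolded protein response, MAFF (0.991), a small MAF protein and possible dimer partner of BACH1, and CD22 (0.987). MAFF averaged 90.9 TPM in starved and 24.6 TPM in fed KO clones, and 85.7 and 21.1 TPM in starved and fed WT clones.

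For KLF5 the nearest genes were MMP3 (0.992), a matrix metalloproteinase, TNFSF9 (0.989), the ligand of 4-1BB, and SERTAD1 (0.989). MMP3 averaged 9.53 TPM in starved and 0.304 TPM in fed KO clones, and 16.4 and 0.204 TPM in WT clones. For KLF10 they were ZNF92 (0.997), the splicing kinase CLK1 (0.996) and MRPL18 (0.995), a mitochondrial ribosomal protein. CLK1 averaged 112 TPM in starved and 40.7 TPM in fed KO clones, and 113 and 37.6 TPM in WT clones. These correlations are descriptions over 5 clones at 2 glucose levels, and any gene with a strong glucose response shares most of such a pattern.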
